A study of Homo sapiens with 32 samples.

Results

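THP-1 cells, a human monocytic leukaemia line, that carry the H760A form of ATP citrate lyase (HA) were compared with THP-1 cells that carry the wild-type enzyme (WT), both untreated. Members were chosen by label: 4 HA and 4 WT libraries out of 32, and 12406 of 60107 genes, those whose normalized counts averaged 10 or more across all 32 libraries. Both lines were made the same way, by lentiviral transduction of ACLY knockout THP-1 cells with an ACLY coding sequence behind an EF promoter, and were selected with puromycin, so the loss of the cell's own ACLY and the viral vector are shared. The 2 groups differ by genotype label only, wild type or H760A. None of the 8 libraries received lipopolysaccharide (LPS), the part of the bacterial outer membrane that monocytes sense. The labels name a single line for each genotype and no separate cultures. P-values therefore measure the spread between libraries of the same line and treatment, pooled over the 8 groups of the series. Line and genotype cannot be told apart.

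Other libraries of the series serve for comparison, 4 in each group: the knockout line (KO), the line with the S455A form of ACLY (SA), and each line after 3 h with 100 ng/ml LPS. SA was also made from knockout cells with the same kind of vector. RNA was read by QuantSeq, a method that sequences the 3′ end of each messenger RNA, so a count does not grow with the length of a gene.

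ACLY (ATP citrate lyase) splits citrate that leaves the mitochondrion into oxaloacetate and acetyl-CoA. That acetyl-CoA feeds the synthesis of fatty acids and sterols and supplies the acetyl groups that are placed on histones. Histidine 760 is the residue that carries the phosphate during catalysis, and its exchange for alanine leaves a protein without catalytic activity. Monocytes present peptides on MHC class II molecules, whose genes are switched on by CIITA, and they answer interferon through STAT proteins with a large set of antiviral genes.

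The changed codon is shown to place the mutation. Capitals mark codon 760 of the 1101 codons of the ACLY coding sequence (GENCODE 44, GRCh38), which is CAT in the reference and GCT in the H760A construct. The 3′ libraries do not read it.

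ACLY codon 760 in context: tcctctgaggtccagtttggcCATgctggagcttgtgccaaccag

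The control regions of 4 genes from the groups that rose are shown because they carry short motifs known from those groups. The windows are RefSeq promoters of GRCh38.p14, 250 bases before to 50 bases after the start of a transcript, 5′ to 3′ along the gene. In the first 2, capitals mark GAAA followed by NN, any pair of bases, and GAAA, a core of the element through which interferon acts. In the others they mark CCAAT, the letters of the Y box of class II promoters. Both strands were searched, so CCAAT can also appear as ATTGG. Overlapping matches merge into 1 run of capitals.

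ISG15 (chr1:1013247-1013546, plus strand): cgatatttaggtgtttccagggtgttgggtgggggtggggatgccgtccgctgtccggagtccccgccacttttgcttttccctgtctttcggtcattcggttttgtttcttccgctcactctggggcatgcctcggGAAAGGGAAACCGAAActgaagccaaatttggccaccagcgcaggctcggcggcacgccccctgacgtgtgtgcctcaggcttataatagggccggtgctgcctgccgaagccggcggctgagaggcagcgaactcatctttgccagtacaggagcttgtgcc
IFI6 (chr1:27672143-27672442, minus strand): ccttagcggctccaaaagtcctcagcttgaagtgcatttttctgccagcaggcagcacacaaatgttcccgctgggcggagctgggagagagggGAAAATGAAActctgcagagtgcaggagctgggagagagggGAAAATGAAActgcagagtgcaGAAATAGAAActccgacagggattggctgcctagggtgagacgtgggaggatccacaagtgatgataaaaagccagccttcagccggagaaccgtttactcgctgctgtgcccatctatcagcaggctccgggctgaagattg
HLA-DPB1 (chr6:33075740-33076039, plus strand): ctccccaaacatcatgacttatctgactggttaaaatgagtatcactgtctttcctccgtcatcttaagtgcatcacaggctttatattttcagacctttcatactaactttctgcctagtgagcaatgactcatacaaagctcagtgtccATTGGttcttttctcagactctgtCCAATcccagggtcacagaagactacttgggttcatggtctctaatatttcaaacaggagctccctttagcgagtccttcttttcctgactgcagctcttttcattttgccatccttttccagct
HLA-DMA (chr6:32953048-32953347, minus strand): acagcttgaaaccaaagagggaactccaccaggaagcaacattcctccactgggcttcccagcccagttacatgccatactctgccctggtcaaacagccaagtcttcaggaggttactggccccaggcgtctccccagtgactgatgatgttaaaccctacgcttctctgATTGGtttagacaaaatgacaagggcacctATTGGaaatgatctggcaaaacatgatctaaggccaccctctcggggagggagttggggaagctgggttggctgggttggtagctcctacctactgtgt

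The interferon motif was present in 3.57% of all 35116 promoter windows. The ISG15 window held 2 matches, which begin 113 and 107 bases before the start, and the IFI6 window held 3. IFIT3, IFI44L, IFITM3 and IFI27 had 2 matches each and HERC5 had 3, whereas the OAS1, XAF1 and STAT2 windows had 0. The OAS1 and XAF1 windows do hold GAAACGAAA, a spacing that the pattern does not match. A count of 0 therefore does not show that the interferon element is absent. CCAAT was present in 34.6% of windows. HLA-DPB1, HLA-DMA, HLA-DRB1 and HLA-DQA1 had 2 matches each, CD74 had 1, and HLA-DPA1 had 0. Where a gene had several windows, the one with most matches was taken. Only 71.0% of the 176 genes that rose had a promoter in the table, so no share over the group is given.

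The 8 libraries held 6688646 to 11400696 reads on genes in WT and 8188012 to 12324297 in HA. Genes near the lower limit of 10 counts carry counting error of their own at this depth. Of 12 tested markers of monocytes and of THP-1 cells, LYZ was the 1 that differed, against 2.52% of all genes. Markers of T and NK cells were at 0 reads in all 8 libraries for 8 of 12 genes, and 2 passed the filter with 0 called. Normalized counts over that list summed to 721 to 894 per library in WT and 615 to 982 in HA. Of 7 B cell markers 2 passed the filter with 0 called, and the list summed to 70.1 to 107 in WT and 83.5 to 111 in HA. In contrast, 0 of 9 erythroid and platelet markers and 0 of 10 epithelial and fibroblast markers passed. Ribosomal protein genes took 13.2 to 15.4% of reads in WT and 9.08 to 12.6% in HA (p = 0.0286 in a two-sided exact permutation test, which can go no lower with 4 against 4, and 0.0714 adjusted over 5 library measures). Of 79 ribosomal protein genes 65 were lower in HA, with a median difference of -0.60 on the log2 scale. Among them 1 passed the limma test, against 2.52% of all genes. The 10 most abundant genes took 7.45 to 8.97% of reads in WT and 9.25 to 10.3% in HA, with the same p and adjusted p. Mitochondrial genes took 3.42 to 6.62% and 6.07 to 8.11% (exact permutation p = 0.0857, adjusted 0.143). WT 3 and HA 1 lay farthest from the other libraries of their group, at root mean square distances of 0.79 and 0.82 on the log2 scale, compared with 0.41 to 0.66 for the rest. The median difference between HA and WT also varied with the GC content of genes. It was -0.09 in the fifth of genes with the lowest GC content and 0.15 in the fifth with the highest (log2). Between HA and WT after LPS these medians were -0.04 and 0.03. The part of these library measures and of GC content in the differences described here was not tested.

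ACLY itself (ENSG00000131473, chromosome 17) did not separate the groups. Its normalized counts were 119, 103, 92.0 and 98.5 in the WT libraries and 135, 82.6, 68.2 and 106 in the HA libraries. The difference was -0.11 ± 0.28 (log2, standard error) with a limma adjusted p of 0.82, and the groups overlapped. Reads from the construct and from the disrupted locus were not distinguished, so this count checks neither label.

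In HA relative to WT, 313 of 12406 genes differed (limma on log2(normalized count + 1), Benjamini-Hochberg adjusted p below 0.01), which is 2.52% of the genes tested. Of these, 176 were higher in HA (1.42%) and 137 lower (1.1%), and 3045 genes had an unadjusted p below 0.05. On the deposited scale, where each line was normalized by itself, the median log2 difference over all genes was 0.12, against -0.02 on the joint scale. There 503 genes differed on the deposited scale, 406 higher and 97 lower. The share of higher genes was therefore 56.2% on the joint scale and 80.7% on the deposited one. In 312 of the 313 genes the 4 HA libraries did not overlap the 4 WT libraries, compared with 17.6% of all genes tested. The exception was AC019069.1. Genes called on these 8 libraries mostly separate through that selection, so a lack of overlap adds no support to a call, here or below. The genes that rose had a median difference of 1.22 on the log2 scale and those that fell had a median of -1.15, with 31 genes above 2 and 25 below -2. Leaving out WT 1 or HA 1 lowered the count to 187, and leaving out WT 2, WT 4 or HA 2 lowered it to 192, 196 and 195. SA LPS 1, which shares only the estimate of the spread, moved it to 555 when left out. With these 8 libraries alone in the fit 196 genes differed.

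The chains of MHC class II molecules and their regulator CIITA were among the genes that rose. Of 15 tested members of the class II presentation list, 9 were higher in HA, against 1.42% of all genes, and 0 lower, with a median log2 difference of 1.94 against -0.02 over all genes. HLA-DRA (ENSG00000204287, chr6:32439878-32445046), the alpha chain of the DR dimer, had 359, 329, 233 and 454 normalized counts in WT and 1954, 2471, 2433 and 4026 in HA. The lowest HA library was thus above the highest WT library, and the difference was 2.97 ± 0.30 (log2, standard error; adjusted p = 1.2e-07), or 7.83-fold on the same scale.

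Both chains of HLA-DP rose too. HLA-DPB1, the beta chain, had 31.9, 20.4, 40.9 and 36.4 counts in WT and 267, 331, 374 and 478 in HA. HLA-DPA1, the alpha chain, had 34.8, 31.4, 43.2 and 48.8 in WT and 285, 404, 349 and 444 in HA. Neither gene overlapped between the groups, with log2 differences of 3.46 ± 0.25 and 3.20 ± 0.20 (adjusted p = 1.3e-10 and 1e-11). HLA-DQA1 was low in WT at 1.45 to 11.4 counts and stood at 18.6 to 62.6 in HA, a difference of 2.98 ± 0.70. HLA-DRB1 and HLA-DRB5 rose by 2.00 and 1.34, but class II beta chain genes vary between people and share long stretches, so reads can be missed or assigned to the wrong copy.

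CIITA, the transactivator that class II promoters depend on, had 7.26, 7.64, 21.6 and 8.88 counts in WT and 83.5, 66.4, 86.1 and 59.9 in HA. The groups did not overlap and the log2 difference was 2.72 ± 0.43 (adjusted p = 0.00015). Genes that act on the assembled dimer rose as well. CD74, the invariant chain that guides class II molecules to endosomes, had 1851, 1708, 2893 and 1903 counts in WT and 6975, 7270, 6877 and 7757 in HA, a difference of 1.82 ± 0.19. HLA-DMA, which helps load peptides, went from 23.8 to 48.8 counts in WT to 100 to 164 in HA, a difference of 1.94 ± 0.27. The DNA-binding factors that recruit CIITA did not pass the test, with a log2 difference of 0.10 for RFX5 and -0.15 for RFXANK, nor did the protease CTSS at 0.38. The class II count was 8 or 9 whichever of the 8 libraries was left out. In bulk RNA, a higher level in each cell and a larger share of cells that express a gene cannot be told apart.

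Interferon-stimulated antiviral genes had more called members than any other list. Of 67 tested, 24 were higher in HA, against 1.42% of all genes, and 0 lower, 60 had a positive difference, and the median was 0.90 on the log2 scale. MX1 (ENSG00000157601, chr21:41420020-41470071), a GTPase that traps viral ribonucleoproteins, had 845, 814, 1498 and 1177 counts in WT and 8628, 5018, 4013 and 3226 in HA. Every HA library was above every WT library, the difference was 2.21 ± 0.29 (log2, standard error; adjusted p = 9.6e-06), and HA 1 was the highest of its group. IFITM3, which blocks viral fusion in endosomes, had 3936 to 5734 counts in WT and 14421 to 42183 in HA, with HA 1 again the highest, a difference of 2.13 ± 0.41.

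Further members of the list rose by less. ISG15, a ubiquitin-like modifier, had 931, 632, 1218 and 761 counts in WT and 4004, 2955, 2173 and 2018 in HA. IFI6, a protein of the endoplasmic reticulum, had 6789, 4766, 5880 and 6058 in WT and 17361, 19083, 14959 and 17261 in HA. Their log2 differences were 1.64 ± 0.28 and 1.55 ± 0.19, and neither overlapped. These are the genes whose promoter windows are printed above. IFIT1, which binds foreign RNA caps, rose by 1.84, IFI44L by 1.75 and OAS2, a synthetase of 2-5A, by 1.54. BST2, which tethers virus particles to the cell, had 1441 to 2197 counts in WT and 1114 to 1792 in HA, and its difference of -0.57 did not pass (adjusted p = 0.14). RSAD2, CMPK2 and EIF2AK2, named after their values were seen, did not pass either, with differences of 1.06, 0.58 and 0.55.

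Over the antiviral list, the mean log2(normalized count + 1) was 8.01, 7.97, 8.14 and 8.19 in the WT libraries and 9.37, 8.92, 8.76 and 8.66 in the HA libraries. The HA values were all above the WT values, and HA 1 was the highest. Leaving out HA 1 lowered the number of antiviral genes called from 24 to 13, and leaving out WT 1 or WT 2 lowered it to 15. With only the 8 libraries in the fit it was 14.

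**Figure D1:**
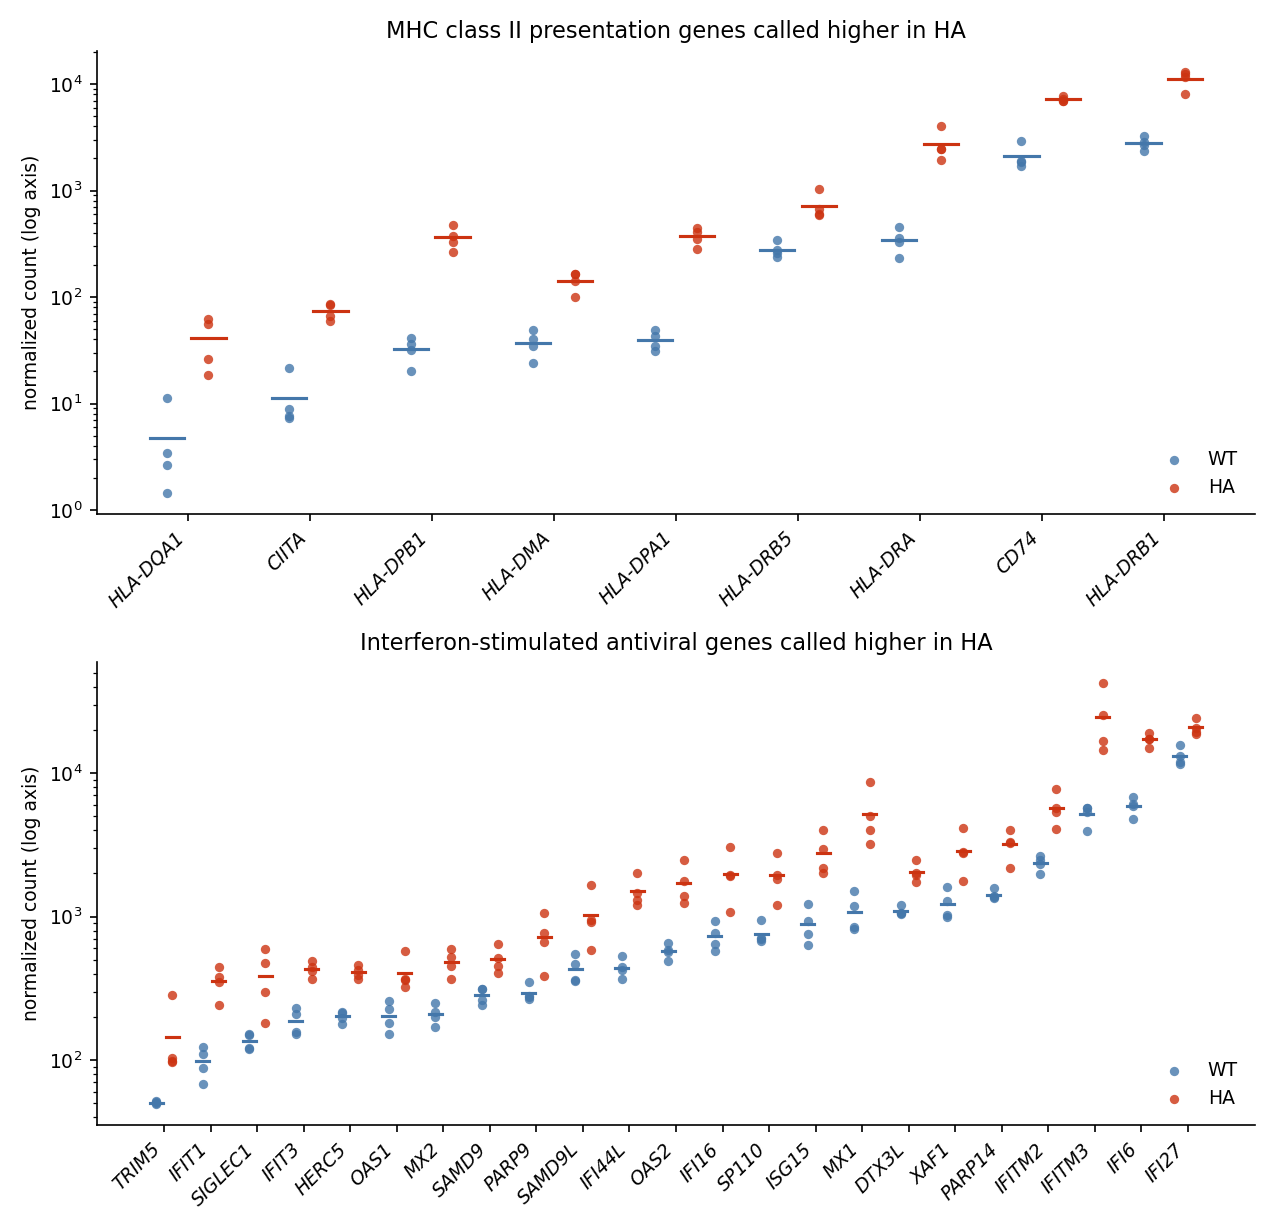
Normalized count (vertical, log axis) of each WT (blue) and HA (red) library for the 9 MHC class II genes and 23 of the antiviral genes called higher in HA, with group means as bars. HA points lie above WT points for every gene plotted, and MX1 spans 3226 to 8628 in HA against 814 to 1498 in WT.

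Lists beside the antiviral genes had 1 or 2 members called higher each, to be read against the 1.42% of all genes. STAT2, which carries the interferon signal to the nucleus, had 103, 125, 183 and 113 counts in WT and 550, 380, 242 and 300 in HA. The groups did not overlap, and the log2 difference was 1.45 ± 0.28 (adjusted p = 0.0014). Of 24 tested signalling genes 2 rose, and the receptor chain IFNAR1 stood at 0.10. Of 12 tested nucleic acid sensors 2 rose: AIM2, which senses DNA in the cytosol, by 2.54 ± 0.41, and IFIH1, which senses double-stranded RNA, by 1.55 ± 0.23. Of 6 guanylate-binding proteins, GTPases that act on intracellular microbes, GBP1 rose by 2.10 and GBP2 by 0.89, whereas GBP3, GBP4 and GBP5 gave -0.22, 0.49 and 0.45 without passing. GBP1 overlapped in no library, with 17.8 to 38.2 counts in WT and 59.0 to 146 in HA. Of 20 MHC class I and peptide loading genes HLA-E alone rose, by 0.54 ± 0.10. B2M, the shared light chain, had 25216 to 32558 counts in WT and 28689 to 35510 in HA.

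Inflammatory genes were examined without LPS. Of 22 tested cytokines and chemokines 14 had a positive difference, with a median of 0.41. In 7 the groups did not overlap, against 17.6% of all genes. Only 1 gene was called higher, a share of 4.55% against 2.52% of all genes called, no result about a list of this size. It was TNFSF10 (TRAIL), a death ligand that interferon induces, with 96.8 to 210 counts in WT and 328 to 432 in HA, a difference of 1.51 ± 0.20 (adjusted p = 1.2e-05). TNF had 523, 632, 580 and 508 counts in WT and 700, 849, 730 and 816 in HA, groups that did not overlap, but the difference of 0.47 did not pass (adjusted p = 0.06). CXCL11, a chemokine induced by interferon, had a difference of 1.56 with an adjusted p of 0.011. CXCL10 gave 1.05, CCL4 1.01 and CCL2 -1.43, none past the test, and IL6 had 0 reads in all 8 libraries. None of 23 genes of the NF-kB pathway, 18 Toll-like receptors and adaptors or 10 inflammasome genes passed the limma test. Against 2.52% of all genes, 0 calls in lists of these sizes is no result about their members. The list medians were 0.17, 0.07 and 0.18. NFKBIA, the inhibitor of NF-kB, had a difference of -0.49 and PYCARD, the inflammasome adaptor, of 0.06.

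Among genes of the monocyte's own equipment, S100A12 (ENSG00000163221, chr1:153373711-153375621), a calcium-binding protein of neutrophils and monocytes, had 749, 641, 829 and 659 counts in WT and 4072, 4479, 4191 and 5208 in HA. The lowest HA library was far above the highest WT library, and the difference of 2.64 ± 0.12 had the smallest adjusted p among the genes described here, 1.7e-15. It was the 1 of 9 tested S100 genes that rose, against 1.42% of all genes. The mean level of the S100 list, as log2(normalized count + 1), was 10.9 to 11.06 in WT and 11.09 to 11.58 in HA, so the groups did not overlap, and the median difference was 0.43. S100A8 and S100A9, which form calprotectin, gave 0.60 and 1.25 (adjusted p = 0.28 and 0.03).

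Of 17 tested granule genes 14 had a positive difference, with a median of 0.58. The test called 2 higher and 1 lower, against 1.42% and 1.1% of all genes. The mean level of that list was 9.25 to 9.5 in WT and 9.67 to 10.07 in HA, without overlap. LYZ, which encodes lysozyme, had 5679, 5887, 3821 and 4290 counts in WT and 10813, 14159, 19208 and 16482 in HA. Its groups did not overlap, and the log2 difference was 1.62 ± 0.34 (adjusted p = 0.0032). CST7, a cysteine protease inhibitor, rose by 2.04, and CFD, the complement protease factor D, fell by 0.79. Of 33 tested surface proteins 14 had a positive difference, with a median of -0.19. The test called 3 higher, against 1.42% of all genes, and 0 lower. The 3 that rose were the scavenger receptor MARCO by 2.51, the integrin chain ITGAL by 1.15 and the adhesion molecule PECAM1 by 0.94. CD14, the coreceptor for LPS, had 58.1 to 96.5 counts in WT and 55.4 to 97.2 in HA. None of 25 myeloid transcription factors passed, against 2.52% of all genes, which is no result about a list of this size. MYB stood at 0.85 (limma adjusted p = 0.03), CEBPA at -0.71 and SPI1 at 0.13.

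Further myeloid genes were named after their values were seen. AXL, a receptor tyrosine kinase for dying cells, rose from 52.4 to 81.3 counts in WT to 165 to 421 in HA, a difference of 1.88. IL10RA, the receptor chain for interleukin 10, rose by 1.35, SMAD3, which transmits TGF-beta signals, by 1.45, CD84 by 1.24 and SLAMF7 by 2.23. PLEK and MNDA rose by 1.00 and 0.79. In the other direction, MS4A6A fell from 323 to 682 counts in WT to 134 to 161 in HA, and MS4A7, CHI3L1 and PRAME fell by 0.92, 0.55 and 0.96. None of these genes overlapped between the groups.

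Genes of metabolism around ACLY came next. None of 37 genes of acetyl-CoA and citrate metabolism passed the limma test, against 2.52% of all genes, which for a list of this size is no result about its members. Their median was -0.20, and 10 of the 37 did not overlap between the groups, against 17.6% of all genes. ACSS2, which makes acetyl-CoA from acetate, had 107, 87.5, 117 and 92.3 counts in WT and 193, 207, 155 and 255 in HA. These groups did not overlap, and the difference of 0.98 ± 0.30 had an adjusted p of 0.044. ACAT2, which condenses acetyl-CoA at the start of sterol synthesis, gave 0.86 (adjusted p = 0.058). None of 24 genes of fatty acid synthesis passed, again no result for a list of this size. FASN, the fatty acid synthase, stood at 0.41 and the list median at -0.14.

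Sterol synthesis genes had a median of 0.60 over 25 tested, 19 of them positive, and 1 passed, against 2.52% of all genes. TM7SF2, a sterol reductase, had 186, 194, 132 and 253 counts in WT and 528, 525, 563 and 773 in HA, a difference of 1.66 ± 0.38 (adjusted p = 0.007) with no overlap. FDPS, which makes farnesyl diphosphate, gave 0.63 without passing. The mean level of the list was 8.41 to 8.80 in WT and 8.78 to 9.34 in HA. The groups overlapped only in that WT 4 (8.80) lay just above HA 2 (8.78). Of 11 LXR targets, APOC1, an apolipoprotein, rose from 66.8 to 126 counts in WT to 323 to 395 in HA, and LPL, the lipase that releases fatty acids from lipoproteins, fell from 188 to 291 counts to 58.3 to 78.9. Their differences were 1.92 ± 0.29 and -1.77 ± 0.20, and these 2 calls stand against 2.52% of all genes. Among 24 genes of fatty acid oxidation ACAA2 alone was called, against 2.52% of all genes, and fell by 0.76.

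Glycolysis, the nuclear-encoded respiratory chain and the mitochondrial messenger RNAs had 0 called genes of 29, 64 and 13 tested. Against 2.52% of all genes, this is no result about lists of these sizes. Their medians were 0.08, -0.20 and 0.42. In the amino acid stress list SLC7A11, the cystine importer, fell by 1.44, and the median of 28 genes was -0.40. In the NRF2 list, with 20 tested, AKR1C2 fell, and the median was -0.06. Each of these lists had 1 call, against 2.52% of all genes.

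No gene of the cell cycle passed, out of 49 tested, against 2.52% of all genes, which is no result about a list of this size. The mean level of that list was 9.88 in all WT libraries and 9.67 to 9.74 in HA, without overlap. Its median difference was -0.11, and 21 of the 49 differences were positive, among them CDC20 and TOP2A at 0.28 and 0.48. CDKN1A, the cyclin-dependent kinase inhibitor p21, had 163, 206, 292 and 234 counts in WT and 650, 528, 311 and 393 in HA. The groups did not overlap, although HA 3 came close to WT 3, and the log2 difference was 1.04 ± 0.21 (adjusted p = 0.002). It was the 1 gene of 14 in its list that rose, against 1.42% of all genes. None of 29 genes of MYC and ribosome biogenesis passed, again no result for a list of this size, with a median of -0.05. Of 40 histone acetylation enzymes and readers 1 was called, 2.5% against 2.52% of all genes, and the median was 0.13. It was HDAC6, a largely cytoplasmic deacetylase, which rose by 1.08 from 122 to 224 counts to 291 to 394.

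**Figure D2:**
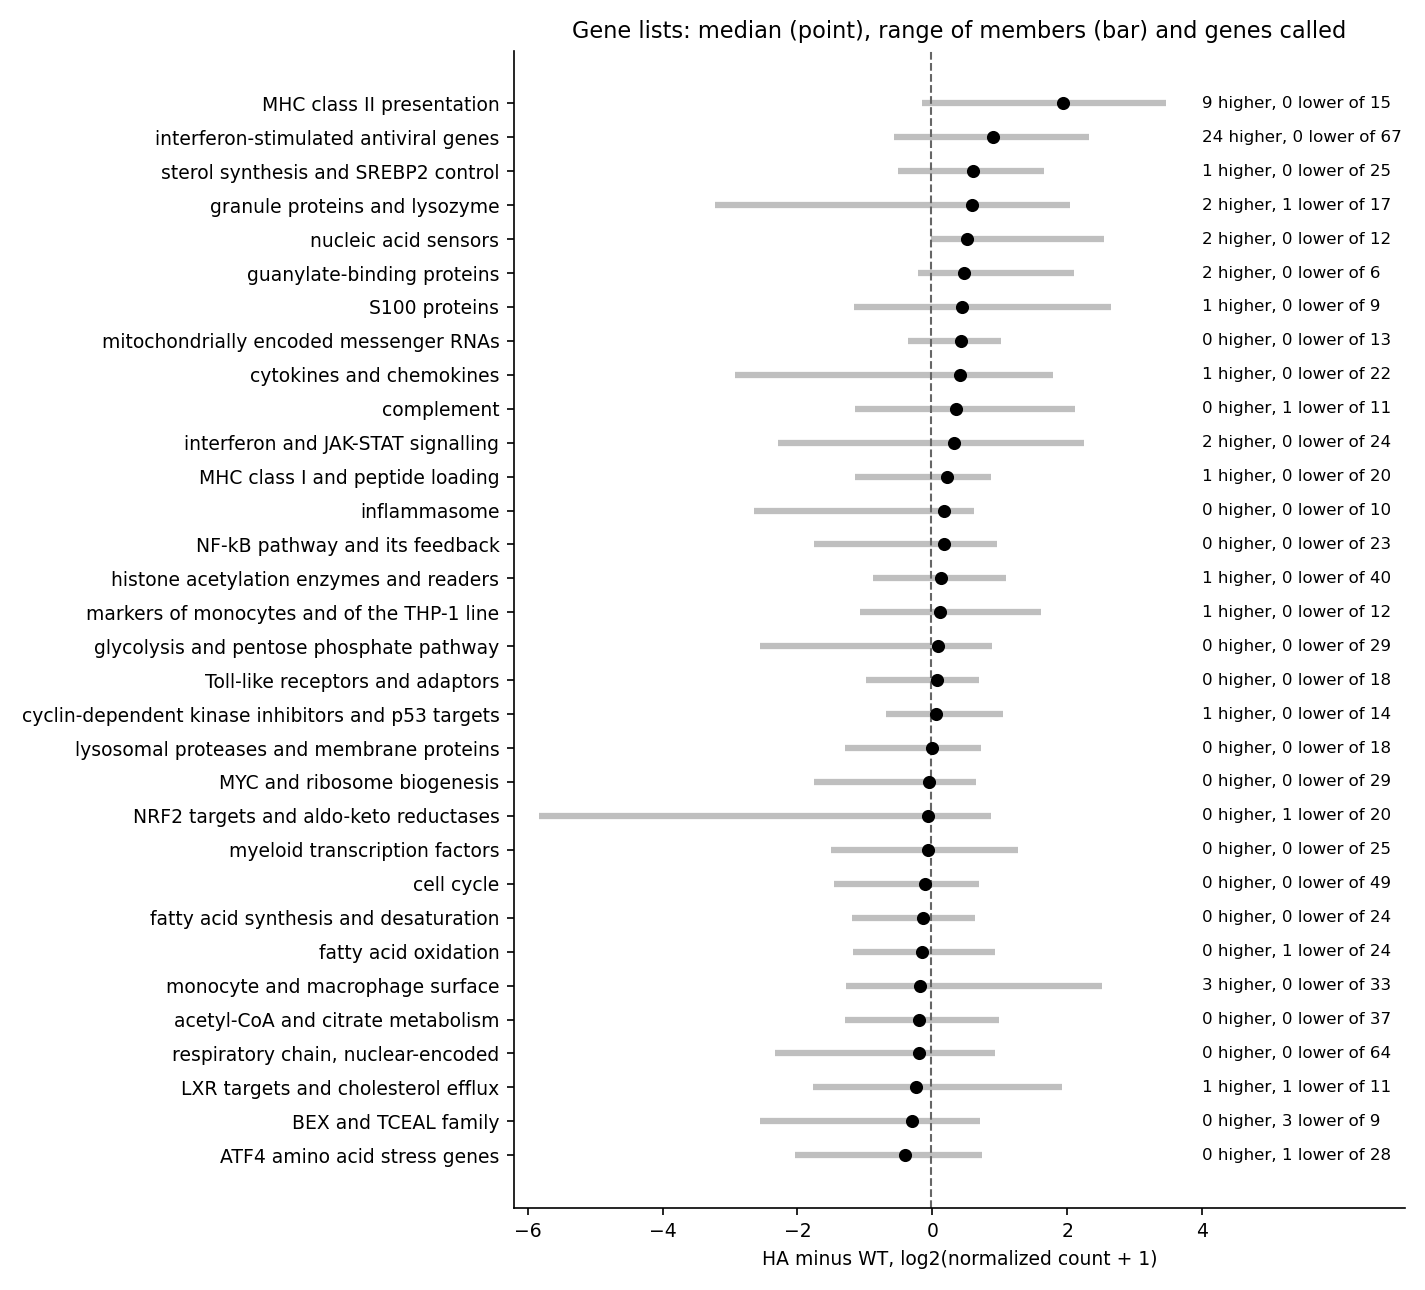
Median difference (point) and range of members (bar) between HA and WT on the log2(normalized count + 1) scale for each gene list with at least 5 genes tested, with the number called at the right and the median of all genes as a dashed line. MHC class II presentation lies at 1.94 and the antiviral genes at 0.90, and most other lists lie close to the dashed line.

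The largest single rise was that of CLSTN2 (ENSG00000158258, chr3:139935185-140577397), which encodes calsyntenin 2, a membrane protein known from synapses. It had 4.36, 11, 3.41 and 7.99 counts in WT and 142, 143, 148 and 104 in HA, a difference of 4.24 ± 0.38 (log2, standard error; adjusted p = 1.3e-08). Other large rises outside the lists described above were ZNF608 at 2.84, TMEM136 at 2.83, GLT1D1 at 2.74, AHNAK2 at 2.72 and the receptor tyrosine kinase LTK at 2.66, and RGL1, MZF1 and SPOCK2 at 2.38, 2.32 and 2.24. WT counts of these genes were at most 62.5 in any library, so the pseudocount of 1 understates their change.

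AKR1C2 (ENSG00000151632, chr10:4987775-5018031), a steroid-converting aldo-keto reductase, had the largest fall. It had 85.6, 77.3, 102 and 59.5 counts in WT and 0, 0.81, 1.20 and 0 in HA, which are 307 against 2 reads. Its log2 difference of -5.84 ± 0.70 depends on the pseudocount, and its reads can be shared with near-identical AKR1C genes. VAT1L fell by 3.25, the chemokine CXCL13 by 2.69, MLPH by 2.59, ZNF462 by 2.33 and NPTX1 by 2.23. ALOX5AP, which hands arachidonic acid to 5-lipoxygenase, fell from 793 to 1113 counts in WT to 159 to 325 in HA. SLC38A1, a glutamine transporter, had 623, 627, 561 and 665 counts in WT and 132, 155, 75.4 and 115 in HA, a difference of -2.41 ± 0.25.

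BEX1 (ENSG00000133169, chrX:103062651-103064171) belongs to a family of small adaptor proteins on the long arm of chromosome X. It had 588, 500, 511 and 485 counts in WT and 52.6, 106, 117 and 91.2 in HA, with no overlap and a difference of -2.55 ± 0.21 (adjusted p = 3e-09). Of 9 tested BEX and TCEAL genes 3 fell, against 1.1% of all genes. BEX3 fell by 1.84 and TCEAL9 by 0.85, while TCEAL4, TCEAL8 and TCEAL3 gave -0.13, 0.36 and -0.68 without passing.

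**Figure D3:**
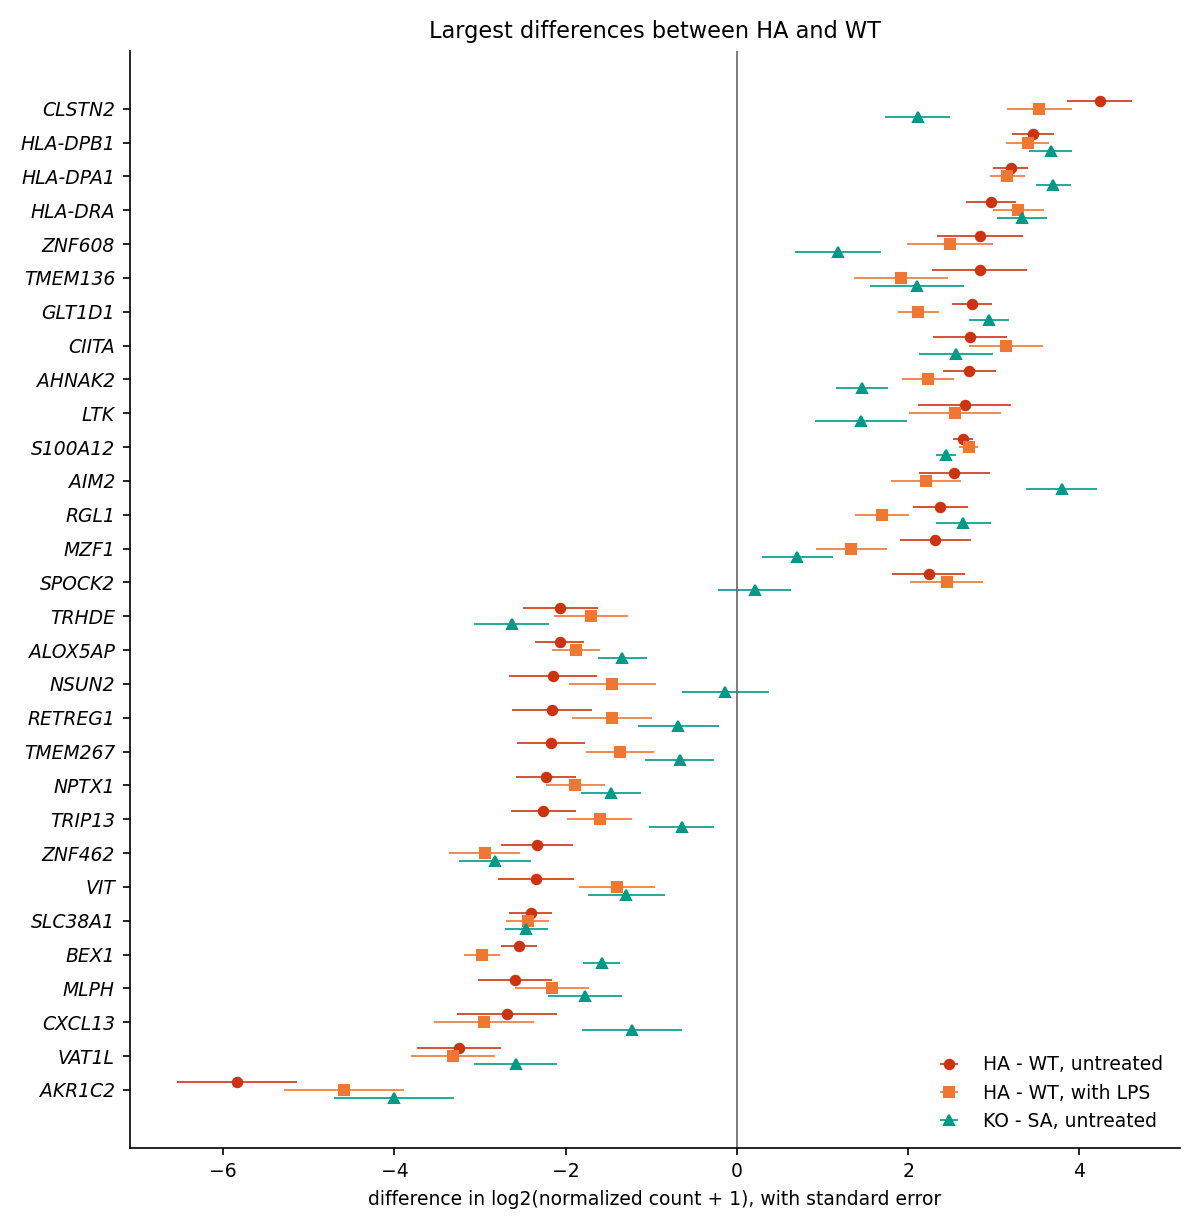
Differences on the log2(normalized count + 1) scale with standard errors for the 15 largest rises and 15 largest falls between untreated HA and WT (circles), beside HA and WT with LPS (squares) and untreated KO and SA (triangles), which share no library with the circles. CLSTN2 lies at 4.24 and AKR1C2 at -5.84, and SPOCK2 lies near 0 between KO and SA.

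Of the 137 genes that fell, 33 lay on the short arm of chromosome 5. Of 97 genes tested that start before 46 Mb on GRCh38, 93 were lower in HA, and 0 were called higher. The 33 are 34.0% of the arm against 1.1% of all genes tested, and 24.1% of all genes called lower came from an arm that holds 0.789% of the genes tested. The arm and the genes named on it were chosen after these values were seen. Its median difference was -1.04 on the log2 scale, a ratio of 0.488, with the middle 50% of genes between -1.57 and -0.60. The 461 genes tested on the long arm had a median of -0.07, with 6 higher and 7 lower.

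CCT5 (ENSG00000150753, chr5:10249929-10266389), a subunit of the chaperonin that folds actin and tubulin, had 11037, 10574, 12443 and 10086 counts in WT and 4179, 4075, 4408 and 3858 in HA. The groups were far apart, at -1.41 ± 0.09 (log2, standard error; adjusted p = 1.8e-11). BASP1, a membrane-associated protein, fell from 4106 to 5283 counts in WT to 1416 to 2122 in HA, and SUB1, a transcription coactivator, from 5646 to 7197 to 2966 to 3378. MRPS30, a mitochondrial ribosomal protein near the centromere, had 975 ± 77.0 counts in WT (SD, n = 4) and 344 ± 45 in HA. OXCT1, which activates ketone bodies, fell by 1.88 and PRKAA1, a catalytic subunit of AMP-activated kinase, by 1.87. TRIP13, NSUN2, RETREG1 and TMEM267 of the largest falls also lie on this arm. ANKH gave 1.13 and TRIO 0.24 in the other direction, neither past the test.

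Relative to the WT mean, the median of the arm was -1.0, -0.96, -0.95 and -0.94 in the 4 HA libraries and -0.05 to 0.01 in the WT libraries. It was -0.94 to -0.71 in KO, -0.14 to 0.05 in SA and -1.07 to -0.86 in HA after LPS. HA and KO libraries were thus low and WT and SA libraries near 0, each library of a line close to the others. Among 286 windows of 10 Mb with at least 10 genes, the 4 with the lowest medians all lay on this arm, at -1.24, -1.16, -0.91 and -0.75. Without the arm, 280 genes differed between HA and WT, 104 of them lower. The number of DNA copies of the arm was not measured.

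**Figure D4:**
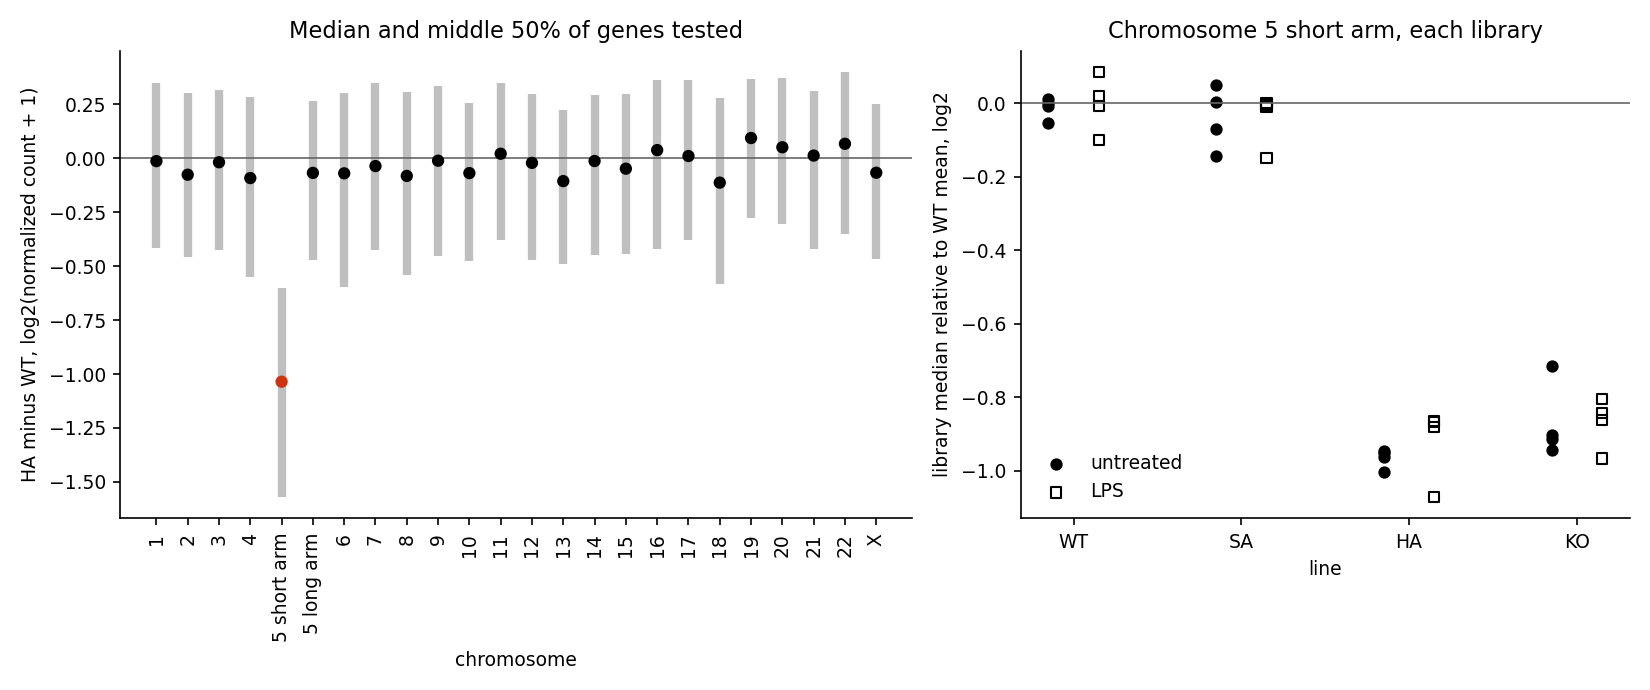
Left, median (point) and middle 50% (bar) of the log2 difference between HA and WT for each chromosome, with the arms of chromosome 5 apart. Right, median of the short arm genes in each library relative to the WT mean (log2), untreated (filled circles) and with LPS (open squares). The short arm lies at -1.04 and the long arm at -0.07, and HA and KO libraries lie near -1 while WT and SA libraries lie near 0.

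Whether the differences recur was examined in libraries that were not used for them. Between HA and WT after LPS, 250 genes differed (2.02% of those tested), and 184 of the 313 genes were among them in the same direction, which is 58.8% of the 313 and 73.6% of the 250. All 313 had the same sign, compared with 80.7% of all genes. These libraries come from the same HA and WT lines, and within each line their ribosomal protein shares ranked by replicate number as in the untreated libraries. Between untreated KO and SA, a pair of other lines, 355 genes differed (2.86%), and 151 of the 313 were among them in the same direction, 48.2% of the 313 and 42.5% of the 355. The sign was shared by 302 of the 313, compared with 55.9% of all genes. Between HA and SA after LPS, 251 genes differed (2.02%), of which 156 were among the 313, 49.8% and 62.2% of each set. These comparisons share no library with untreated HA and WT, but the last shares HA LPS libraries with the first. The 313 include called genes of the short arm of chromosome 5, which was low in HA and KO alike. Recurrence without that arm was not counted. In all of these comparisons 87 of the 313 genes were called in the same direction, 47 higher and 40 lower, 81 were called in none, and 0 were called in the opposite direction.

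HLA-DRA, HLA-DPB1, HLA-DPA1, CIITA, CD74, S100A12 and CLSTN2 were called in all of them. HLA-DRA differed by 3.29 between HA and WT after LPS, by 3.33 between KO and SA and by 3.18 between HA and SA after LPS. S100A12 gave 2.71, 2.44 and 2.84, and SLC38A1 gave -2.45, -2.46 and -2.62. MX1 and ISG15 were called in part of them. MX1 differed by 1.46 between HA and WT after LPS and by 1.87 between KO and SA, and by 0.75 between HA and SA after LPS, which did not pass (adjusted p = 0.13). ISG15 gave 1.32, 2.22 and 0.57 in the same comparisons, and the last did not pass (adjusted p = 0.26). SPOCK2 gave 0.21 between KO and SA (adjusted p = 0.90).

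SA, the other line transduced with an ACLY construct, was also compared with WT. Between them limma called 0 genes, with 445 at an unadjusted p below 0.05. The class II list had a median of 0.08 and the antiviral list of 0.31 in SA relative to WT. HLA-DRA had a mean of 325 counts in SA beside 343 in WT and 2721 in HA, and CIITA 12.5 beside 11.3 and 74.0. The test of whether the difference between HA and WT changed with LPS called 0 genes with limma, and 142 had an unadjusted p below 0.05. It did not pair the untreated and LPS libraries of a replicate number. The class II median was 1.94 without and 1.75 with LPS, and the antiviral median 0.90 and 0.75.

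HA was also compared with KO, the knockout line. They differed in 28 genes (0.226% of those tested, and 1288 at an unadjusted p below 0.05), of which 3 were higher in HA (0.0242%) and 25 lower (0.202%). Of the 313 genes 11 were among them. The antiviral genes were where several of these lay. IFI44L had a mean of 442 counts in WT, 1503 ± 361 in HA (SD, n = 4) and 4006 ± 852 in KO, and GBP1 had 23.3, 103 ± 36.3 and 419 ± 93.0. Both were higher in HA than in WT and lower in HA than in KO, with HA and KO apart by -1.42 ± 0.20 and -2.06 ± 0.30 (adjusted p = 0.00035 for both). IFIT3, OAS1, HERC5 and SLAMF7 had the same order, with differences between HA and KO of -1.80, -1.12, -1.06 and -1.56 on the log2 scale.

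Genes that were not called between HA and WT also separated HA from KO. CXCL10, a chemokine for T cells, had a mean of 110 counts in WT, 216 in HA and 1277 in KO. CD14 had 84.4, 74.0 and 265, and GPNMB, a glycoprotein of lysosome-rich macrophages, had 46.3, 76.7 and 300. The log2 differences between HA and KO were -2.39, -1.85 and -2.04. These genes were named after their values were seen. MMP9, the gelatinase, had 771 counts in WT, 411 in HA and 1186 in KO, and was thus lower in HA than in either. SPOCK2, a proteoglycan, was the opposite case, with 13.4 counts in WT, 71.9 in HA and 14 in KO. It was higher in HA than in KO by 2.28 ± 0.42 (adjusted p = 0.0054). The class II list had a median of -0.16 between HA and KO and the antiviral list of -0.76, against 28 called genes in all. Leaving out HA 2, HA 3 or HA 4 lowered the 28 to 11, 15 and 14.

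**Figure D5:**
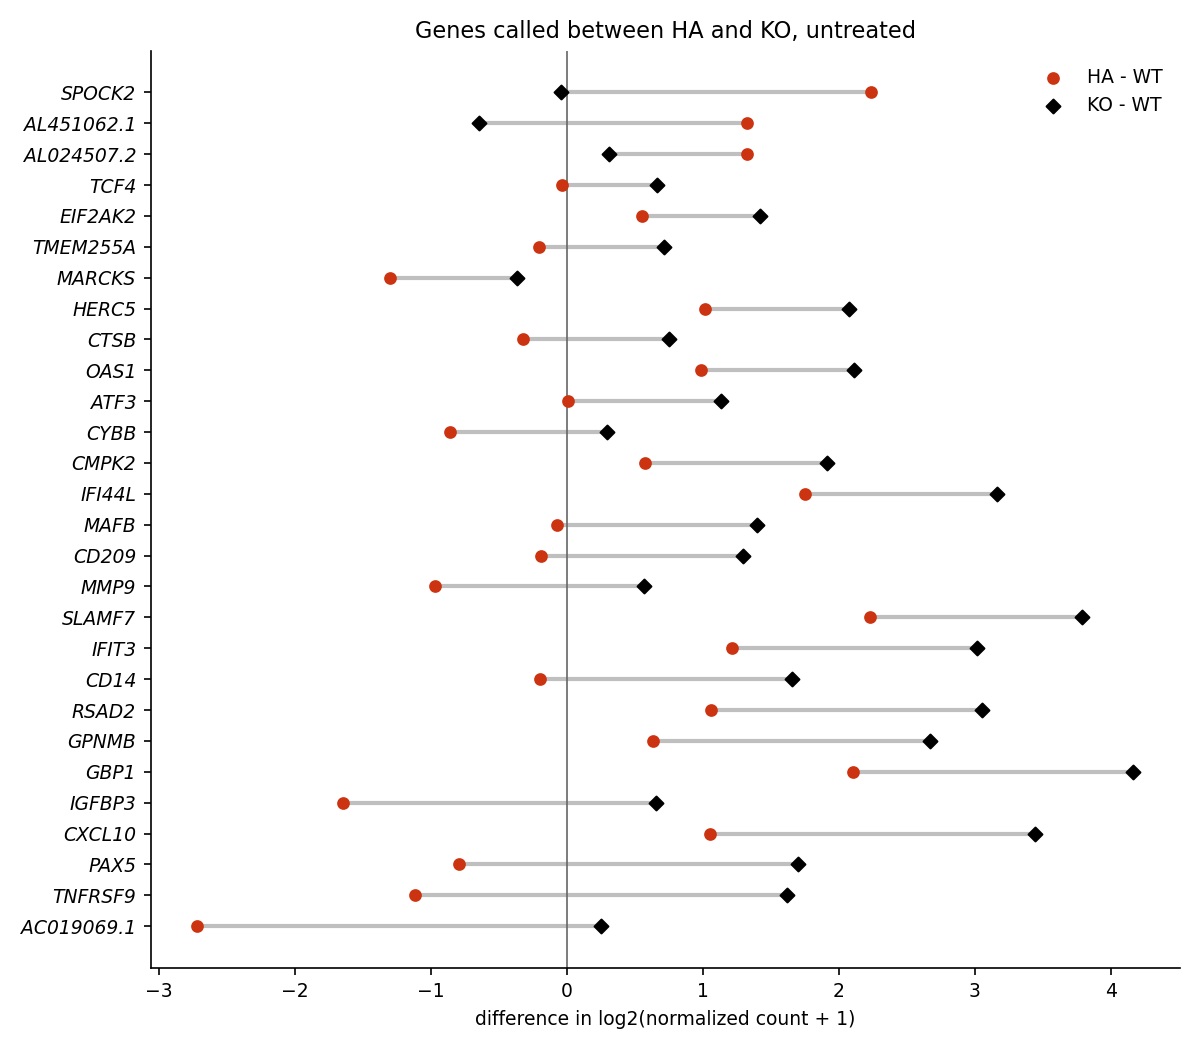
Difference from WT on the log2(normalized count + 1) scale in HA (red circles) and KO (black diamonds) for the 28 genes that differed between untreated HA and KO, joined by a line. For GBP1 HA lies at 2.10 and KO at 4.16, and for SPOCK2 HA lies at 2.24 and KO at -0.04. Both points of a gene use the same 4 WT libraries.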

How the data were processed

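RNA of untreated HA and WT cells, and of the comparison groups, was sequenced with QuantSeq 3′ FWD kits from 500 ng of total RNA. According to the study's methods, the authors used Bbduk for trimming, STAR for mapping to GRCh38 and HTSeq-count for reads per gene. The authors deposited normalized counts made with DESeq2, 1 table per line and treatment, a unit other than raw counts. Versions and the annotation release are not given in the sources used here. All values above 0 (100.000%) were whole multiples of 1 number per library within 0.05 reads, so reads were recovered, and 92 spike-in features were left out.

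Recovered reads were divided by median-of-ratios factors over all 32 libraries, because the deposited tables had been scaled per line. Genes with a mean of at least 10 entered limma (version 3.58.1, R 4.3.3) as log2(normalized count + 1), in 1 fit with a mean for each of 8 groups and a trended prior. P-values were adjusted by Benjamini-Hochberg over 12406 genes with a limit of 0.01. Fold changes of low genes are understated on this scale. Reads were counted without molecular identifiers and can include copies of 1 molecule. Groups and replicate numbers came from the labels. Within a group, libraries differed by a chi-square per gene of 4.74 to 99.5, so none was a copy of another.

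Members, gene lists (36 lists, 747 genes tested) and tests were chosen with earlier results of these data known. Lists are described by counts and medians. Genes were named by rule: those the study names, the 15 largest rises and 15 largest falls among called genes whose libraries did not overlap and whose higher group averaged at least 50, called and highly expressed members of the lists, and genes that separate HA from KO. Others are said to have been named after their values were seen. Some genes that the rule names are not reported here. Positions are those of GENCODE 44 on GRCh38. Scripts were tested on simulated data. Alternatives covered the scale, pseudocount, filter, libraries in the fit, replicate block, library weights and each library left out.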

Additional observations from a re-analysis of the deposited data

Results flagged for a closer look

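In 276 groups of 4 libraries, the called genes, the lists and the library measures were examined for a single library far from the other 3, by a gap above Dixon's 95% critical value for its share of the group's range. This picked out 17 groups (6.16%), and chance picks about 1 in 20.

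Several genes stood apart in a single WT library. CD74 reached 2893 normalized counts in WT 3, with the others at 1708 to 1903, and CIITA reached 21.6 there, with the others at 7.26 to 8.88. PARP9 reached 352 (others 269 to 281), SP110 950 (677 to 706), PECAM1 2959 (2472 to 2499) and TMEM136 25 (2.55 to 5.81) in the same library. GBP1 reached 38.2 in WT 4 (17.8 to 18.9 in the others) and DTX3L 1205 in WT 1 (1039 to 1061). In each of these genes the highest WT library remained below the lowest HA library.

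In HA, TRIM5 reached 285 in HA 1 (97.2 to 104 in the others), SPOCK2 130 in HA 4 (47.4 to 58.6) and TM7SF2 773 in HA 4 (525 to 563), and CLSTN2 was lowest in HA 4 at 104 (142 to 148).

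On the log2(normalized count + 1) scale, the mean level of the guanylate-binding proteins was highest in 1 HA library at 6.49 (5.74 to 5.85) and that of the lysosomal genes at 10.2 (9.87 to 9.91). In WT the nuclear-encoded respiratory chain was lowest in 1 library at 10.5 (10.9 in the others), and so were the kinase inhibitor and p53 target genes at 7.01 (7.15 to 7.17). Ribosomal protein genes took 13.2% of reads in WT 3 and 15.2 to 15.4% in the other WT libraries.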

How the results depend on the processing

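The count of 313 genes moved to 503 on the deposited scale, 199 with scale and fit from the 8 libraries, 196 with those libraries alone in the fit, 2632 with library weights and 555 without SA LPS 1 (the last added after the data were seen). Over each HA or WT library left out it was 187 to 283, and 143 genes were called each time. Pseudocounts, filters, the 16 untreated libraries and voom (added later) gave 240 to 330. The cause of these shifts was not tested.

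Library weights moved the recurrence counts of 184, 151 and 156 to 879, 368 and 917. With a library left out these were 136 to 162, 116 to 142 and 119 to 137. The 11 genes shared by both HA comparisons became 7 without a filter, 4 with 16 libraries, 20 without SA LPS 1, 70 with weights and 3 to 13 with a library left out. The short arm of chromosome 5, relative to all genes, was -1.01 (-1.06 to -0.93 with a library left out), -0.98 relative to genes of like GC content, and the long arm was -0.046, both added later.

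Replicate numbers did not pair HA with WT libraries by their deviations: same-number deviations correlated at -0.24 to 0.29, and 0 HA libraries matched their own number best. The mitochondrial messenger RNA list did rank by number alike in both lines. Its mean level, as log2(normalized count + 1), was 13.04, 13.37, 13.3 and 14.1 in WT 1 to WT 4. In HA 1 to HA 4 it was 13.5, 13.8, 13.7 and 14.5. A pairing by number is therefore not excluded. With the replicate block the count was 426 over 32 libraries and 8 in the 8 libraries, and the 11 became 20.

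Of 4669 values of named genes under alternatives, 0 reversed, 364 lost and 59 gained a call. Of 748 list medians 696 stayed within 1 SD. Count tests (edgeR, its TMM scale, DESeq2) were not run.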
